A study of Sus scrofa with 4 samples.

Results

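The epidermal growth factor (EGF) family of the follicle was followed through 10 genes of the count table, 6 ligands (AREG, EREG, BTC, HBEGF, TGFA and NRG1) and 4 receptors (EGFR, ERBB2, ERBB3 and ERBB4), of 29884 rows in all. Every gene was found by its symbol, and each passed the filter on low counts. The RNA came from granulosa cells, the somatic cells that surround the oocyte, taken from antral follicles of pigs. Cell cycle phases were read by flow cytometry in part of the cells, and the rest were sequenced as 2 libraries with a high share of cells in G0/G1, the phase before DNA synthesis, and 2 with a low share. The labels name no breed, age or treatment, and they do not state that libraries within a group are from different animals, so p-values here reflect spread among these 4 libraries alone, part of which may be technical.

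EGF-like ligands are made as membrane proteins whose growth factor part is cut off by a protease, and they act by pairing ERBB receptors, which then signal through RAS and the MAP kinases. In the ovary, luteinising hormone makes granulosa cells of the follicle wall produce AREG, EREG and BTC, and these ligands act on EGFR to carry the ovulatory signal to the cumulus cells around the oocyte. AREG and TGFA bind EGFR, while BTC, EREG and HBEGF bind EGFR and ERBB4, and NRG1 binds ERBB3 and ERBB4. ERBB2 has no known ligand of its own and serves as a partner of the others, and ERBB3 has a very weak kinase.

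Library totals ran from 27442850 to 32674921 counts, and a count of 0 allows a level of at most 0.0918 to 0.109 CPM (counts per 1000000 counts of the library). This limit uses the unscaled library totals, while all other CPM values here use TMM-scaled library sizes. Markers of granulosa cells were present throughout: each of 11 had a count in every library, with a summed level of 17172 to 24595 CPM. In low replicate 2 the 8 markers of stromal fibroblasts and smooth muscle summed to 1571 CPM, against 53.8 to 142 CPM in the other libraries. The 6 theca markers summed to 402 CPM there, against at most 124 CPM. Not all went this way. In high replicate 2 and low replicate 2, PDGFRA stood at 18.6 and 6.17 CPM and MYH11 at 5.37 and 3.68 CPM. Of the theca markers, NR2F2 stood at 33.3 and 25.9 CPM and PTCH1 at 56.9 and 23.6 CPM in these libraries. The other markers of both lists were highest in low replicate 2. The 8 leukocyte and macrophage markers summed to between 0.659 and 4.00 CPM. In such bulk samples, fewer cells of a type and less RNA per cell cannot be told apart.

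The ligands differed widely between libraries, also within a group, while EGFR and ERBB2 held nearly the same level in all 4. BTC was the 1 gene of the 10 with both high G0/G1 libraries above both low ones, against 26.8% of all genes tested. ERBB2 and ERBB3 were the 2 with both high libraries below both low ones, against 29.8%. For ERBB2 this order rested on 68.60 CPM in high replicate 2 against 68.63 CPM in low replicate 1, which lay within counting error. With edgeR's quasi-likelihood test 0 of the 10 genes passed an adjusted p of 0.05, as did 0 of 14352 genes tested (0.00%). At an unadjusted p under 0.05, 1 of the 10 was higher and 0 lower, against 9.92% and 10.8% of all genes tested, or 20.7% in either direction. The median log2 fold change, high minus low, was 0.15 for the 10 genes and -0.01 for all genes tested. Limma-voom also called 0 genes, while DESeq2 called 1 of the 10, BTC, where it called 5.34% of all genes higher and 5.05% lower.

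**Figure D1:**
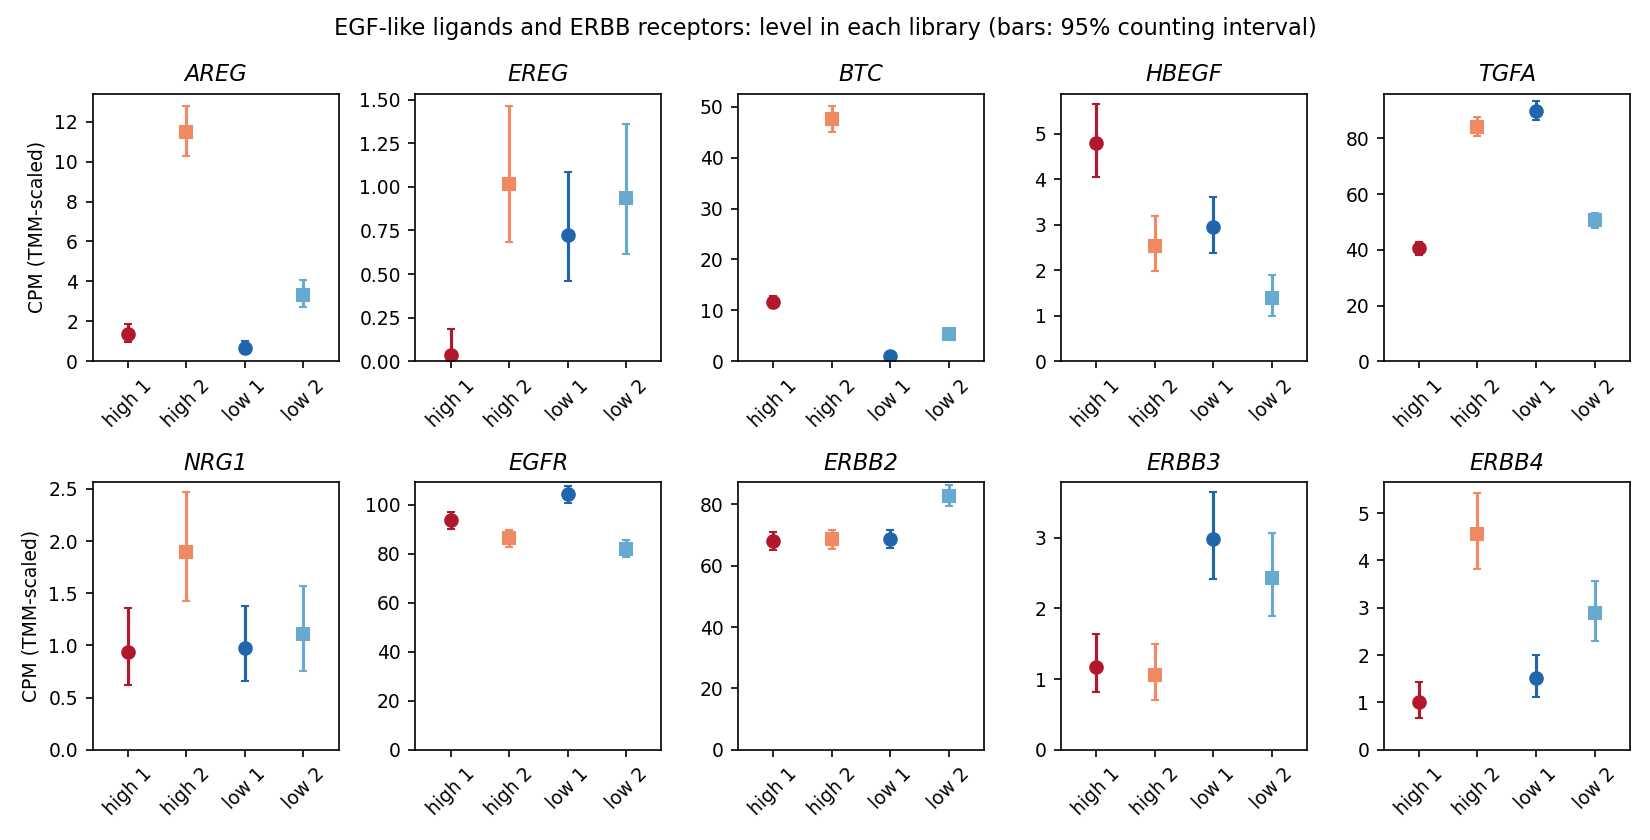
Level of each EGF-like ligand and ERBB receptor in CPM (vertical axes, starting at 0) in the 2 high and 2 low G0/G1 libraries (horizontal axes), with the exact 95% Poisson interval of the count as bars. BTC stands highest in high replicate 2 at 47.5 CPM, and EGFR lies between 82.1 and 104 CPM in every library.

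BTC (betacellulin, chromosome 8, 70645721 to 70697538 in Sscrofa11.1) stood at 11.6 and 47.5 CPM in high replicates 1 and 2 and at 0.941 and 5.41 CPM in low replicates 1 and 2. The groups did not overlap, which holds in either direction for 56.6% of all genes tested. The means were 29.6 ± 25.4 CPM (SD, n = 2) in high and 3.18 ± 3.16 CPM in low G0/G1 cells. High minus low, the log2 fold change was 3.22 ± 1.05 (SE), with an unadjusted 95% interval from 0.54 to 5.90 (edgeR unadjusted p = 0.0268, adjusted p = 0.202). DESeq2 gave an adjusted p of 0.00568, which became 0.299 without high replicate 2. The spread within groups was large: the high libraries lay 4.11-fold apart (95% counting interval 3.65 to 4.64) and the low libraries 5.75-fold (3.87 to 8.81).

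AREG (amphiregulin, chromosome 8, 70417935 to 70428106) stood at 1.38 and 11.5 CPM in high replicates 1 and 2 and at 0.659 and 3.33 CPM in low replicates 1 and 2. High replicate 2 was the highest library, and high replicate 1 lay between the low libraries, so the groups overlapped. Its log2 fold change of 1.69 ± 1.21 (SE; 95% interval -1.37 to 4.75; edgeR adjusted p = 0.460) rested on high replicate 2. Without that library it was -0.53, and without low replicate 2 it was 3.31. The high libraries lay 8.35-fold apart (6.02 to 11.9), more than the 3.22-fold difference between the group means.

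EREG (epiregulin, chromosome 8, 70351316 to 70372530) was close to the limit of these libraries, with 1 and 29 counts in high replicates 1 and 2 and 23 and 27 counts in low replicates 1 and 2. These counts equal 0.0335, 1.02, 0.721 and 0.936 CPM. The 1 count of high replicate 1 left it 30.3-fold below high replicate 2, with a counting interval from 5.03 to 1240. The other 3 libraries differed by less than their counting intervals. The log2 fold change of -0.66 ± 1.29 (SE; edgeR adjusted p = 0.800) became 0.29 without high replicate 1 and -4.46 without high replicate 2.

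EREG, AREG and BTC lie in 1 stretch of 346 kb on chromosome 8, a region that also holds another EGF-like ligand gene, EPGN (epigen). Of 17 RefSeq genes that start within 500 kb of AREG, 10 were tested, among them the chemokine genes CXCL8 and CXCL2, the folate enzyme gene MTHFD2L and PARM1. High replicate 2 stood above high replicate 1, and low replicate 2 above low replicate 1, in each of these 10 genes, which include EREG, AREG and BTC. This order, noticed after the values were seen, held in 28.0% of all genes tested. It also held in 6 of the 10 ligand and receptor genes, among them NRG1, ERBB2 and ERBB4 on other chromosomes. The replicate numbers follow the listing order, and the labels state no pairing. The titles of both replicate 2 libraries share the letter W, and those of both replicate 1 libraries share a digit. The labels give no meaning for either. Some of these differences lie within counting error. The size of the step varied along the stretch. MTHFD2L stood at 4.86 and 5.76 CPM in high and 2.16 and 3.09 CPM in low replicates 1 and 2. EPGN stood at 0.570 and 0.983 CPM in high and 0.376 and 0.624 CPM in low. Their spans overlap, with EPGN starting at 70266867 and MTHFD2L ending at 70288356. How reads there were split is unknown, so the levels of both genes may not be independent. CXCL8 was highest in low replicate 2 at 3.57 CPM, against 0.0941 to 0.843 CPM in the others. Of the 10 tested genes within 500 kb of AREG, BTC and MTHFD2L had both high libraries above both low ones, against 26.8% of all genes tested.

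**Figure D2:**
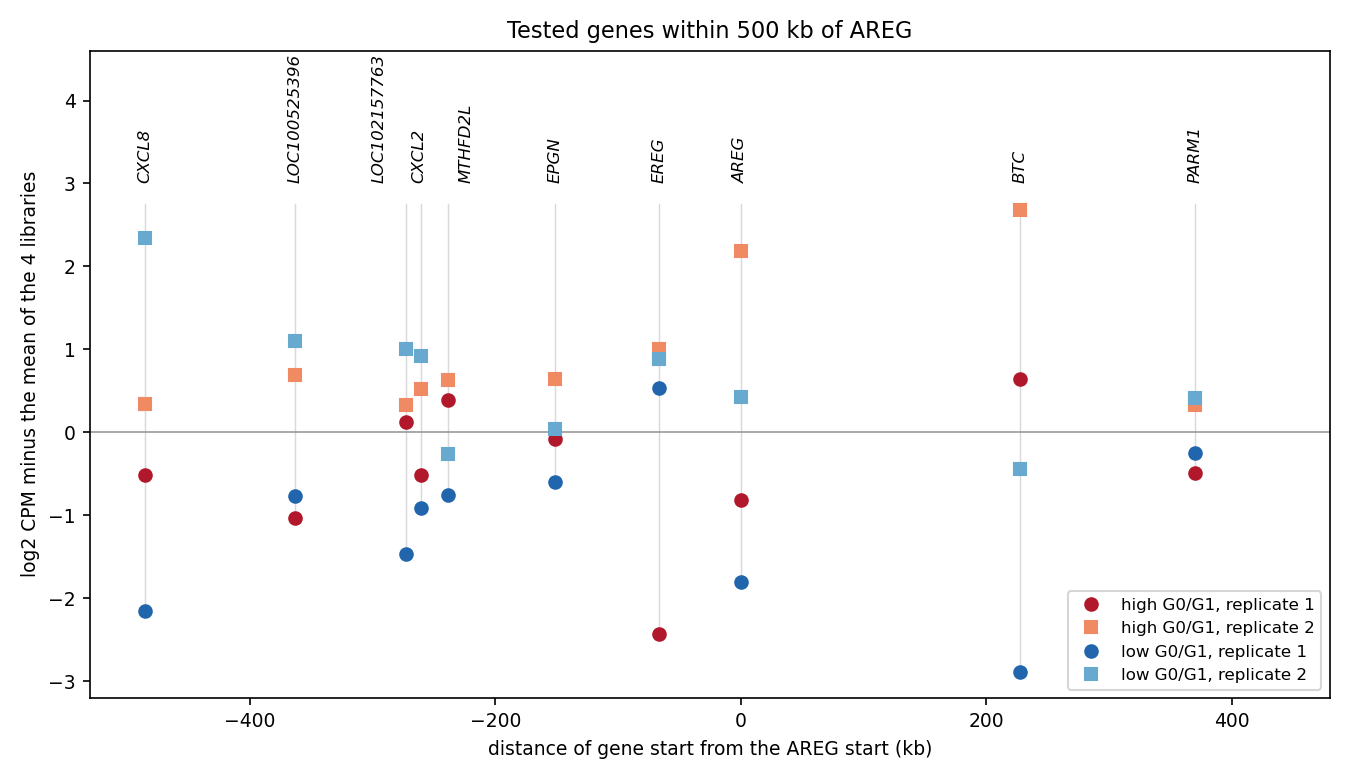
Log2 CPM of each tested gene within 500 kb of AREG, minus its mean over the 4 libraries (vertical axis), by the distance of its start from the AREG start in kb (horizontal axis), with 1 point per library. In BTC the 2 high G0/G1 libraries lie above the 2 low ones, and in AREG and EREG the groups overlap.

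The share of AREG in the summed AREG and BTC counts is given per library, as a description of a pair chosen after the values were seen. AREG made up 10.6% in high replicate 1 (exact 95% Clopper-Pearson interval 7.73% to 14.1%) and 19.5% in high replicate 2 (17.6% to 21.4%). In low replicates 1 and 2 it made up 41.2% (27.6% to 55.8%) and 38.1% (32.1% to 44.4%). BTC, which is part of the share, by itself had both high libraries above both low ones, and the AREG level overlapped between groups. Such a share depends on the lengths of both transcripts, so it is read across libraries and not as a ratio of molecules.

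BTC made up 22.2% (20.2% to 24.4%) and 36.1% (34.6% to 37.7%) of the summed BTC and TGFA counts in high replicates 1 and 2. In low replicates 1 and 2 the share was 1.04% (0.700% to 1.47%) and 9.67% (8.27% to 11.2%). This pair too was chosen after the values were seen, and it holds BTC, while TGFA overlapped between groups. All these intervals cover counting error only, since without molecular identifiers several reads may come from 1 molecule.

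**Figure D3:**
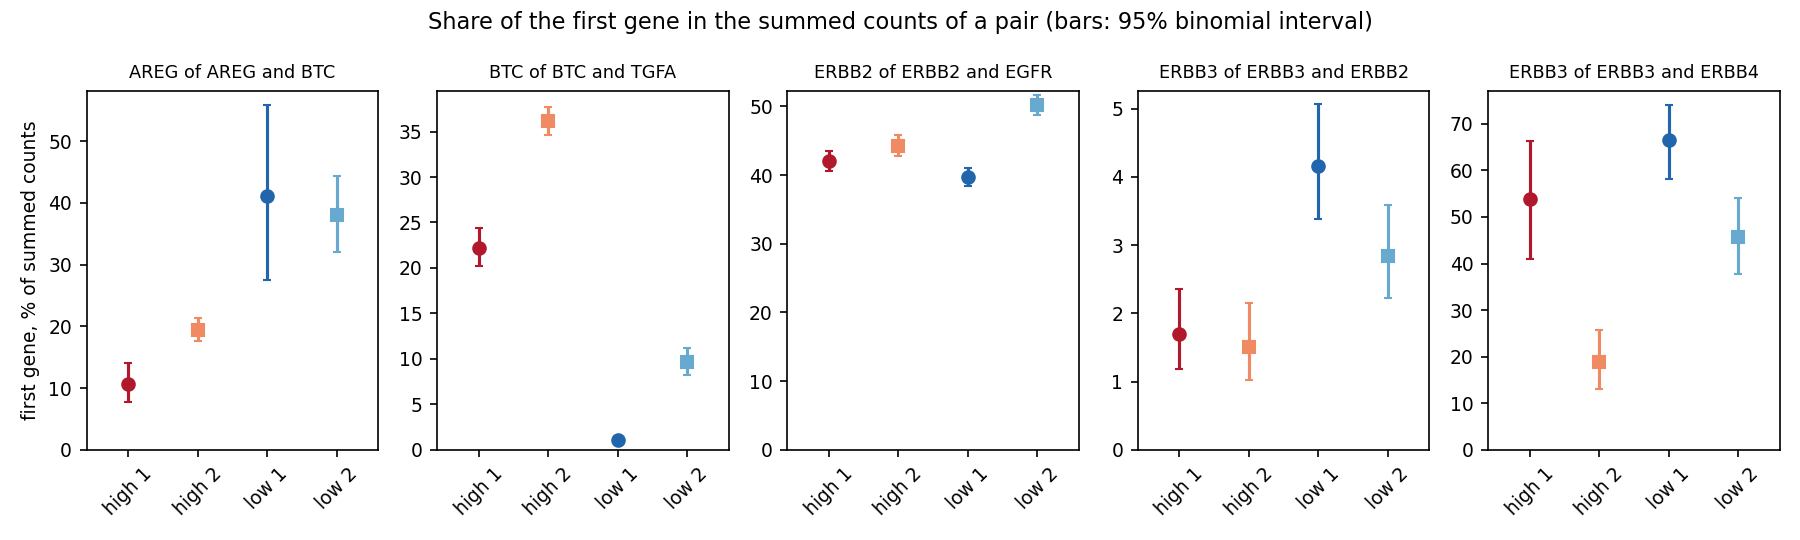
Share of the first named gene in the summed counts of a pair, in percent (vertical axes, starting at 0), in each library (horizontal axes), with the exact 95% binomial interval as bars. The AREG share is 10.6% and 19.5% in high and 41.2% and 38.1% in low G0/G1 libraries.

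TGFA (transforming growth factor alpha, chromosome 3, 71948232 to 72054257) had the most counts of the 6 ligands, 7929 over the 4 libraries. It stood at 40.5 and 84.1 CPM in high replicates 1 and 2 and at 90.0 and 50.5 CPM in low replicates 1 and 2. High replicate 2 and low replicate 1 were the higher pair, 1 from each group, and the other 2 the lower. From low to high the log2 fold change was -0.17 ± 0.45 (SE; 95% interval -1.32 to 0.98; edgeR adjusted p = 0.855). It turned to 0.25 without high replicate 1 and to 0.37 without low replicate 1.

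HBEGF (heparin-binding EGF-like growth factor, chromosome 2, 142102455 to 142115192) was highest in high replicate 1. It had 4.80 and 2.53 CPM in high replicates 1 and 2 and 2.95 and 1.39 CPM in low replicates 1 and 2, so that the groups overlapped. Its order of libraries thus differed from that of AREG and BTC, which were both highest in high replicate 2. Its log2 fold change was 0.75 ± 0.62 (SE; 95% interval -0.83 to 2.33; edgeR adjusted p = 0.521).

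NRG1 (neuregulin 1, chromosome 15, 52625550 to 53688003) was found at a low level, with 28 and 54 counts in high replicates 1 and 2 and 31 and 32 counts in low replicates 1 and 2. In CPM these were 0.939, 1.90, 0.972 and 1.11. High replicate 2 was the highest, and the other 3 differed by less than their counting intervals. The log2 fold change of 0.44 ± 0.63 (SE; edgeR adjusted p = 0.719) became -0.15 without high replicate 2.

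Among the receptors, EGFR (chromosome 9, 139302410 to 139474632), which binds each of these ligands but NRG1, stood at 93.7 and 86.3 CPM in high replicates 1 and 2 and at 104 and 82.1 CPM in low replicates 1 and 2. The low libraries enclosed the high ones. The means were 90.0 ± 5.26 CPM (SD, n = 2) in high and 93.2 ± 15.6 CPM in low. EGFR had a log2 fold change of -0.05 ± 0.22 (SE; edgeR adjusted p = 0.916), with a 95% interval from -0.61 to 0.50. Its sign turned to 0.20 without low replicate 1 and to 0.0089 without high replicate 2.

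ERBB2 (chromosome 12, 22591621 to 22621384), the receptor without a known ligand, stood at 68.0 and 68.6 CPM in high replicates 1 and 2 and at 68.6 and 82.9 CPM in low replicates 1 and 2. The values other than that of low replicate 2 lay within counting error of each other, and that library stood above them. ERBB2 had a log2 fold change of -0.15 ± 0.21 (SE; edgeR adjusted p = 0.709), with a 95% interval from -0.67 to 0.37. Over the 4 libraries the highest value was 1.22 times the lowest for ERBB2 and 1.27 times for EGFR, against 50.5 times for BTC and 17.4 times for AREG. ERBB2 made up 39.7% to 50.2% of the summed ERBB2 and EGFR counts, the highest share being in low replicate 2.

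ERBB3 (chromosome 5, 21474218 to 21495040), a neuregulin receptor that signals mainly to phosphatidylinositol 3-kinase, stood at 1.17 and 1.05 CPM in high replicates 1 and 2 and at 2.98 and 2.43 CPM in low replicates 1 and 2. The groups did not overlap, and the libraries of a group differed by less than their counting error, at 35 and 30 counts in high and 95 and 70 in low. The mean was 1.11 ± 0.0855 CPM (SD, n = 2) in high and 2.70 ± 0.391 CPM in low, 2.43-fold higher. ERBB3 had a log2 fold change of -1.28 ± 0.52 (SE; 95% interval -2.59 to 0.04), which missed the threshold (edgeR adjusted p = 0.249). With 1 library left out it ranged from -1.40 to -1.06. ERBB3 made up 1.70% and 1.51% of the summed ERBB3 and ERBB2 counts in high and 4.16% and 2.85% in low replicates 1 and 2, and the intervals of high replicate 1 (1.19% to 2.35%) and low replicate 2 (2.22% to 3.58%) overlapped.

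ERBB4 (chromosome 15, 113966573 to 115096984), the receptor shared by neuregulins, BTC, EREG and HBEGF, stood at 1.01 and 4.56 CPM in high replicates 1 and 2 and at 1.51 and 2.88 CPM in low replicates 1 and 2. The high libraries were the lowest and the highest of the 4. The log2 fold change of 0.35 ± 0.84 (SE; 95% interval -1.80 to 2.49; edgeR adjusted p = 0.843) became -1.12 without high replicate 2 and 1.05 without high replicate 1. ERBB3 and ERBB4 thus differed in their pattern: ERBB3 made up 53.8% of their summed counts in high replicate 1 and 18.8% in high replicate 2, against 66.4% and 45.8% in low replicates 1 and 2.

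**Figure D4:**
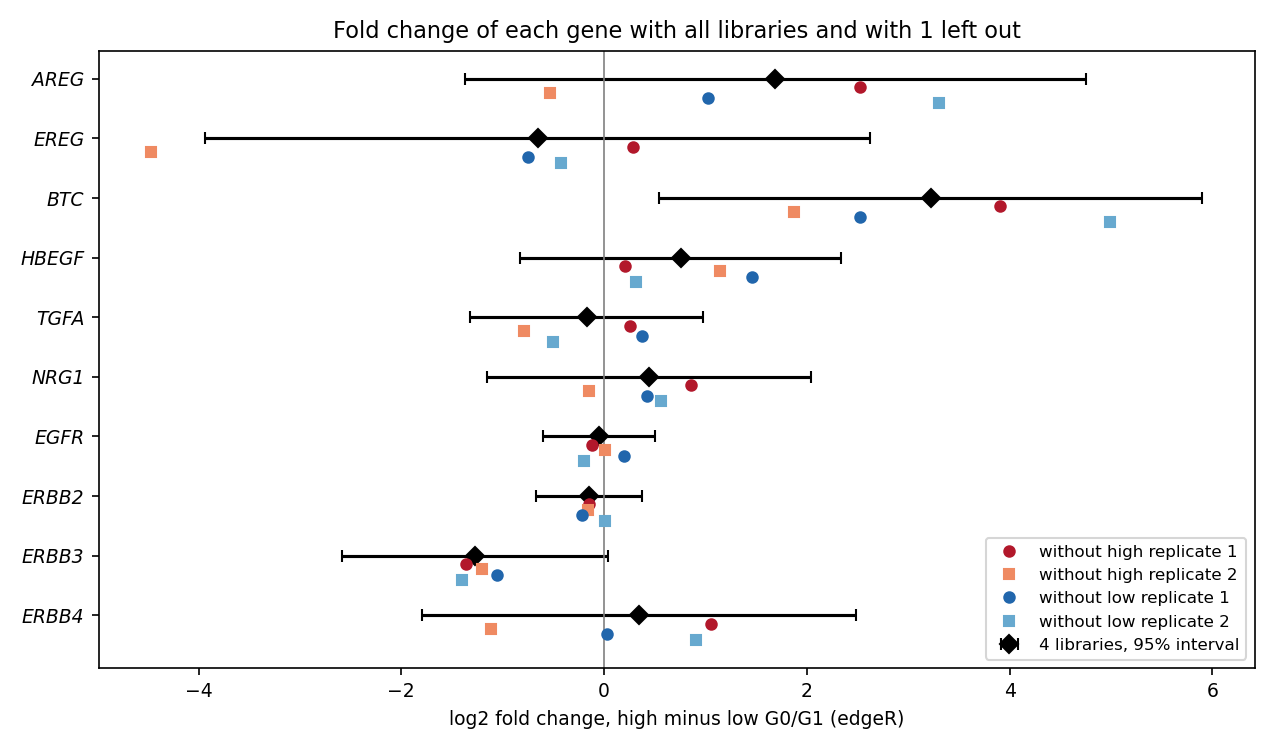
Log2 fold change, high minus low G0/G1, of each gene (horizontal axis) with its unadjusted 95% interval from edgeR over 4 libraries (black), and the value with 1 library left out (coloured points). The BTC values range from 1.87 to 4.99 and the ERBB3 values from -1.40 to -1.06, while AREG, EREG, TGFA, NRG1, EGFR, ERBB2 and ERBB4 have values on both sides of 0.

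High replicate 2 was the highest library for 5 of the 10 genes, AREG, EREG, BTC, NRG1 and ERBB4, against 30.0% of all genes tested. The high libraries lay 2-fold or more apart in 6 of the 10, against 19.9% of all genes tested, and 4-fold or more apart in 4 (AREG, EREG, BTC and ERBB4), against 6.38%. The low libraries lay 2-fold or more apart in 3, AREG, BTC and HBEGF, against 13.6%. Summed levels of markers of other cells also differed between libraries. From high replicate 1 to 2 the 8 stromal markers summed to 112 and 142 CPM and the 6 endothelial markers to 16.6 and 46.8 CPM. The markers of a list did not all move together. In high replicates 1 and 2 the endothelial KDR stood at 1.98 and 29.5 CPM, and VWF at 6.64 and 4.32 CPM. The stromal PDGFRA stood at 1.98 and 18.6 CPM, and COL1A1 at 34.3 and 27.7 CPM. In low replicates 1 and 2 the stromal markers summed to 53.8 and 1571 CPM and the endothelial markers to 7.15 and 52.5 CPM. The 6 epithelial markers summed to 1.24 and 8.99 CPM in high and 3.01 and 7.66 CPM in low, with KRT7 and KRT19 at 0 counts in high replicate 1. The part of these cells in the levels of AREG, BTC and ERBB4 was not tested.

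The nearest profiles were taken from a pool far larger than the family, so a nearer gene outside the family was likely in advance. Nearness was the Euclidean distance between log2 CPM profiles over the 4 libraries, each centred on its mean, among genes whose average log2 CPM was at least 1. For AREG the nearest of 11817 genes was PDGFRA (distance 0.38), followed by LOC100519934 and HENMT1, while ERBB4 ranked 153 (1.74) and BTC 400 (2.07). For BTC they were CD180 (0.18), PDE7B and NUGGC, with AREG at rank 103. For ERBB4 they were VGLL3 (0.12), S100A10 and MYOCD. For TGFA they were CISH (0.12), CRYAB and ACOT7, for HBEGF TOPORS (0.15), LOC100627195 and LOC102166523, for EGFR LOC100627091 (0.03), TIMM22 and GATD1, and for ERBB2 TMEM101 (0.02), B4GALT7 and TMEM245. With 4 libraries many genes share a profile, so these names are a description.

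Of the 5 other EGF-like ligand genes, EGF, NRG2, NRG3, NRG4 and EPGN, 3 were tested. NRG3 (neuregulin 3, chromosome 14, 83316962 to 84405347), an ERBB4 ligand known mainly from the nervous system, had 152 and 281 counts in high replicates 1 and 2 and 0 and 3 counts in low replicates 1 and 2. It was thus nearly confined to the 2 high libraries, at 5.10 and 9.86 CPM. The ratio of the summed levels, high over low, was 150 with a 95% counting interval from 51.1 to 732. That interval pools the counts of each group and leaves out the spread between libraries. The edgeR log2 fold change, whose error includes this spread, was 7.11 ± 1.12 (SE), with an unadjusted 95% interval from 4.26 to 9.96. With edgeR the adjusted p was 0.132, and with DESeq2 it was 6.8e-09. Without high replicate 1, edgeR called NRG3 (adjusted p = 0.0410), with 2.41% of all genes then called higher. NRG4, also an ERBB4 ligand, stood at 1.95 and 2.11 CPM in high and 4.67 and 3.12 CPM in low replicates 1 and 2 (log2 fold change -0.94 ± 0.48, SE, edgeR adjusted p = 0.321). EGF had 0 to 6 counts and NRG2 0 to 5 in a library.

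The 14 genes of ligand shedding and trafficking were all tested. At an unadjusted p under 0.05, 2 members were higher and 3 lower, where 9.92% and 10.8% of all genes were, and 0 passed after adjustment. The median log2 fold change was -0.38, against -0.01 for all genes tested. ADAM17, the main sheddase of AREG, EREG, HBEGF and TGFA, overlapped at 81.0 and 134 CPM in high and 95.7 and 91.4 CPM in low replicates 1 and 2. ADAM10, which sheds BTC, overlapped too, at 97.0 and 65.1 CPM in high and 91.0 and 77.3 CPM in low. TIMP3, an inhibitor of ADAM17, stood at 828 and 1493 CPM in high and 293 and 306 CPM in low (log2 fold change 1.95 ± 0.35, SE, edgeR adjusted p = 0.148). Among the other metalloproteases ADAM12 stood at 31.8 and 30.4 CPM in high and 243 and 96.0 CPM in low, and ADAM19 at 1.21 and 0.351 against 4.89 and 5.93 CPM. ADAM9 went the other way, at 96.4 and 66.6 CPM against 44.8 and 31.8 CPM.

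Of 33 tested genes of receptor signalling, 6 were higher and 2 lower at an unadjusted p under 0.05, against 9.92% and 10.8% of all genes tested, and 0 passed after adjustment. The median log2 fold change was 0.12, against -0.01 for all genes tested. The adaptor gene GRB2, which links the receptors to RAS, stood at 76.9 and 97.1 CPM in high and 76.8 and 73.1 CPM in low. The transcription factor gene STAT5A stood at 81.9 and 365 CPM in high and 43.1 and 34.4 CPM in low (log2 fold change 2.53 ± 0.72, SE, edgeR adjusted p = 0.181). PIK3R1, the regulatory subunit of phosphatidylinositol 3-kinase, stood at 140 and 54.5 CPM in high and 29.5 and 24.2 CPM in low. KSR1, a scaffold of the RAF and MAP kinases, had 57.6 and 28.5 CPM against 18.3 and 17.8 CPM, and STAT3 had 130 and 179 CPM against 96.7 and 76.4 CPM.

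Of 25 tested genes that restrain or turn over the receptors, 2 were higher and 1 lower at an unadjusted p under 0.05, against 9.92% and 10.8% of all genes tested, and 0 passed after adjustment. Their median log2 fold change was 0.20, against -0.01 for all genes tested. CBLB, a ubiquitin ligase of activated receptors, stood at 107 and 175 CPM in high and 57.8 and 37.8 CPM in low (log2 fold change 1.56 ± 0.35, SE, edgeR adjusted p = 0.166). Its partner in receptor uptake, SH3KBP1, went the other way, at 16.5 and 13.8 CPM in high and 28.8 and 32.4 CPM in low. PTPN1, a tyrosine phosphatase, had 47.1 and 60.1 CPM against 36.6 and 27.4 CPM, and STUB1, a ubiquitin ligase that acts on ERBB2, had 71.1 and 69.7 CPM against 92.4 and 91.1 CPM. ERRFI1, an inhibitor of the EGFR kinase that EGFR signalling induces, stood at 30.9 and 57.3 CPM in high and 31.3 and 15.4 CPM in low, with the groups overlapping.

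Among 18 tested genes of the ovulatory and cumulus response, 3 were higher and 0 lower at an unadjusted p under 0.05, against 9.92% and 10.8% of all genes tested, and 0 passed after adjustment. In this group the median log2 fold change was 0.81, against -0.01 for all genes tested. The 3 were EGR1, an immediate early transcription factor gene (1.43 ± 0.36, SE), LHCGR, the luteinising hormone receptor gene (2.39 ± 0.66), and the coregulator gene NRIP1 (1.55 ± 0.44), each at an edgeR adjusted p of 0.170 to 0.181. LHCGR was highest in high replicate 1, at 1001 CPM against 277 CPM in high replicate 2, the reverse of the order of these 2 libraries in AREG and BTC. RUNX1, an ovulatory transcription factor gene, stood at 50.3 and 160 CPM in high and 47.7 and 23.2 CPM in low. PTGS2, the prostaglandin synthase of ovulation and a target of EGFR signalling, stood at 3.02 and 142 CPM in high and at 9.57 and 3.50 CPM in low. It was named after its value was seen. High replicate 2 was thus the library with the highest AREG, BTC and PTGS2 levels in CPM. In high replicate 1 PTGS2 had 90 counts, close to the 101 counts of low replicate 2. Other genes of the list went another way. TNFAIP6, not tested, had 0 and 3 counts in high and 4 and 26 in low replicates 1 and 2. PTX3 was highest in low replicate 2 at 2.39 CPM, against 0.456 CPM in high replicate 2. High replicate 2 was the highest library for 8 of the 18 tested genes, against 30.0% of all genes tested. The matrix proteoglycan gene VCAN overlapped, at 2584 and 1702 CPM in high and 2576 and 2324 CPM in low.

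**Figure D5:**
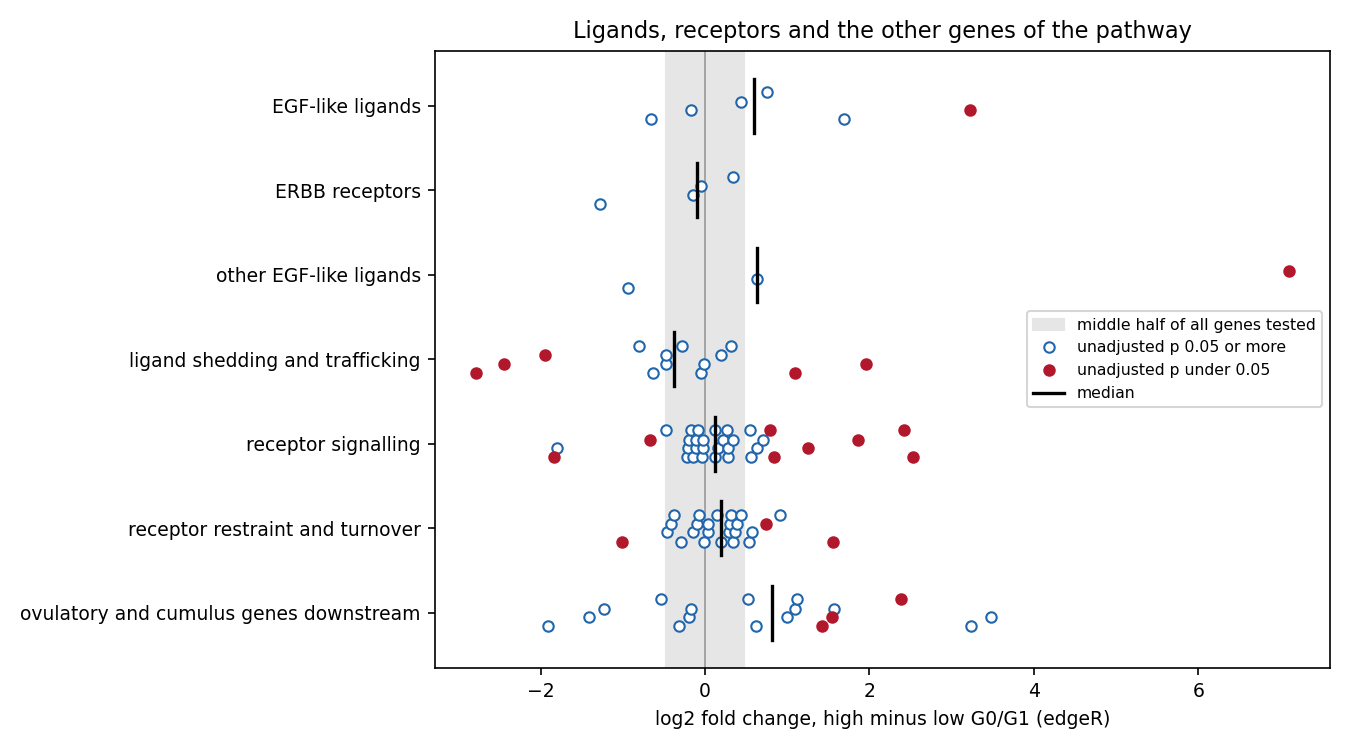
Log2 fold change, high minus low G0/G1, of each tested gene (1 point each, horizontal axis) by group (vertical axis), with the median as a black line and the span between the quartiles of all genes tested in grey. Filled points have an unadjusted p under 0.05, among them BTC at 3.22 and NRG3 at the far right, and 0 passed after adjustment.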

How the data were processed

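Total RNA was extracted with Trizol and libraries were made by Illumina protocols, per the labels' protocols. Per the submitters' processing notes, HISAT2 aligned the reads to Sscrofa11.1. The labels name no counter, annotation release or strand setting, so how reads of overlapping genes were split is unknown. The authors deposited 1 table of whole-number counts per gene symbol, used as raw counts.

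All 4 libraries were compared in R 4.3.3 using edgeR 4.0.16 (TMM, filterByExpr at a count of 10 and a total of 15, glmQLFit, glmQLFTest, no covariate, Benjamini-Hochberg over 14352 genes). SEs divide the absolute log2 fold change by the square root of F. Log2 CPM for profiles used a prior count of 2. DESeq2 1.42.0 and limma-voom (limma 3.58.1), 2 other scalings, no filter and leaving out each library were alternatives, and the tests were checked on simulated counts. Positions are RefSeq's for Sscrofa11.1.

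The 10 genes and the lists were chosen with earlier results of these data known. Besides the 10, up to 4 tested genes per list are named, taken by smallest p where the average log2 CPM is at least 1, plus the 3 nearest profiles. Background genes (ADAM17, ADAM10, GRB2, ERRFI1, VCAN, TNFAIP6, PTX3), the chromosome 8 neighbours and markers were named after their values were seen. One list gene is not analysed here. Counting intervals are exact at 95%.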

Additional observations from a re-analysis of the deposited data

How the results depend on the processing

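No paired analysis was possible because the replicate numbers follow the listing order and the labels give none. The planned shares of ligand and receptor levels per transcript length were not run, since no transcript lengths were used here. DESeq2 called 767 genes higher and 725 lower, 1 of the 10 members among them (BTC, log2 fold change 3.27, adjusted p = 0.00568). Without the low-count filter edgeR called 2 genes higher and 3 lower. Limma-voom had 1 member lower at an unadjusted p under 0.05, ERBB3, where 1710 of 14352 genes were lower. With 1 library left out, edgeR called 0 to 363 genes higher and 0 to 591 lower, the most without high replicate 1, and 0 members. Such fits leave 1 library in a group, which then has no spread of its own.

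With 1 library left out, the edgeR log2 fold change ranged from -0.53 to 3.31 for AREG, -4.46 to 0.29 for EREG, -0.79 to 0.37 for TGFA, -0.15 to 0.85 for NRG1, -0.20 to 0.20 for EGFR, -0.21 to 0.0063 for ERBB2 and -1.12 to 1.05 for ERBB4, so each of these changed sign. BTC (1.87 to 4.99), HBEGF (0.21 to 1.46) and ERBB3 (-1.40 to -1.06) did not. DESeq2 with 1 library left out, added after the data were seen, gave -0.50 to 3.28 for AREG, -4.60 to 0.33 for EREG, -0.77 to 0.35 for TGFA, -0.12 to 0.90 for NRG1, -0.23 to 0.17 for EGFR (0.030 without high replicate 2) and -1.09 to 1.10 for ERBB4. It kept the BTC call in 3 of the 4 settings (log2 fold change 2.50, 3.95 and 4.97) and lost it without high replicate 2 (1.90). The cause was not tested. In the 18 genes named from lists 0 of 162 values changed sign. These genes were taken by smallest p in the same data, so a stable sign was likely in advance. DESeq2 on all 4 libraries called each of them except NRG4, STAT3, PTPN1, STUB1 and RUNX1, where it called 5.34% of all genes higher and 5.05% lower. The choice by smallest p made such calls likely in advance too. Depth limits EREG, NRG1, ERBB3 and ERBB4, at 80 to 291 counts in all.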
